A study of Drosophila melanogaster with 2 samples.

Results

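Of 48 genes encoding proteasome subunits or their paralogues in Drosophila melanogaster, 12 had a binding site of the transcription factor charlatan near a transcription start site (TSS). This share of 25.0% was close to the 24.1% of all protein-coding genes. The 48 are the protein-coding genes of Ensembl release 115 whose symbols begin with Prosalpha, Prosbeta, or Rpn or Rpt followed by a digit, among 13986 protein-coding genes in all. They comprise 32 main subunits and 16 paralogues, whose symbols carry an R or a T after the subunit number. All 12 bound genes were main subunits, 5 of the 14 of the core particle and 7 of the 18 of the regulatory particle. No paralogue was bound.

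Binding was measured by ChIP-seq, the sequencing of immunoprecipitated chromatin, on whole embryos of both sexes, collected 0 to 24 h into development. The embryos carried a transgene that makes charlatan (gene chn), a zinc finger factor known for its role in the development of the peripheral nervous system, with eGFP at its C-terminal end, and an anti-GFP antibody pulled down the fusion. There was 1 group with 2 biological replicates, and no condition was compared with another. The promoter that drives the fusion is not given in the sources used here, and whole embryos mix all cell types and stages, so the cells in which a site was bound cannot be told. Genes are called bound here by the set of 4537 peaks left by the submitters' irreproducible discovery rate (IDR) filter, a measure of how well replicates rank the same peaks. A relaxed list of 30000 peaks was called on both replicates pooled. The filtered set, called thresholded, was the top 4537 of the pooled list by signal, so its lower limit is a signal of 71.4. A gene was counted where a peak summit lay within 1000 bp of any of its TSSs. Read counts are not part of the lists. The depth is therefore unknown, and absence of a summit can mean either a weak site or no binding.

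The proteasome degrades proteins that have been marked with ubiquitin. Its core particle is a barrel of stacked rings, in which alpha subunits form the gated ends and beta subunits form the middle, and 3 of the beta subunits (Prosbeta1, Prosbeta2 and Prosbeta5) hold the cutting sites. The regulatory particle caps the barrel. Its Rpt subunits form a ring of ATPases that unfolds the substrate and opens the gate, and its Rpn subunits form the scaffold, the ubiquitin receptors and the lid that removes ubiquitin. Several genes with the suffix T are known from Drosophila as variants made in the testis.

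In 9 of the 12 bound members the strongest summit lay between starts that face away from each other, against 47.4% of all bound protein-coding genes. To show such promoters, the stretches under the summits of Rpn5, Rpn2, Rpn3 and Rpt5, and that of Prosalpha2 for one without a neighbour, are printed from the Release 6 (dm6) genome, plus strand, with only the bases that lie outside annotated exons and within 149 bp of the summit. Capitals mark matches, on either strand, to the DNA replication-related element (DRE) TATCGATA, to the TATA box TATAAA, or to 7-mers over-represented in an earlier analysis of these same peaks, of which ATCGATA occurs here along with CTATCGA, with CGATAGC, with ACTATCG, with AGTGTTG and with CTCGCTC. In the Rpn3 stretch capitals mark a repeat in place of motifs. Rpn5 encodes a lid subunit, and its promoter carried 2 thresholded summits, at 284 and 85 bp upstream of the start. They lie in the stretches chr3R:5789075-5789328 and chr3R:5789385-5789492, which are separated by a first exon of the neighbour Hat1. The first stretch lies within an intron of 1 Hat1 transcript. The Rpn2 stretch, chr3R:29153312-29153523, ends at the start of Rpn2, the scaffold of the base. The Rpn3 stretch, chr2L:19051613-19051789, is the whole interval between the starts of l(2)37Bb and Rpn3, a lid subunit. The Rpt5 stretch, chr3R:23752835-23752875, is the whole 41-bp interval between the starts of RanBP3 and Rpt5, an ATPase. The Prosalpha2 stretch, chr3R:12431236-12431320, ends at the start of Prosalpha2, an alpha ring subunit with no neighbouring start.
Rpn5, distal summit: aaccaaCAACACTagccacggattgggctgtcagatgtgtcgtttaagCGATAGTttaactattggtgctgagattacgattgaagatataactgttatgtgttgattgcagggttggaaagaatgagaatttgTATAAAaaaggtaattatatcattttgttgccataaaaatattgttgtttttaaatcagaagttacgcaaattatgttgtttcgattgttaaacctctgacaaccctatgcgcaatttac
Rpn5, proximal summit: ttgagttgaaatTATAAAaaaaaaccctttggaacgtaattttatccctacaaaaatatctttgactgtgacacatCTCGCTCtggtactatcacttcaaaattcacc
Rpn2: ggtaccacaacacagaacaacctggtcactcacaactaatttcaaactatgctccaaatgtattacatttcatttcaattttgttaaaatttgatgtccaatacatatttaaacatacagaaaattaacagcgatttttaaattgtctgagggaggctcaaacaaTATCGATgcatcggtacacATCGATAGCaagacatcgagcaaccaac
Rpn3: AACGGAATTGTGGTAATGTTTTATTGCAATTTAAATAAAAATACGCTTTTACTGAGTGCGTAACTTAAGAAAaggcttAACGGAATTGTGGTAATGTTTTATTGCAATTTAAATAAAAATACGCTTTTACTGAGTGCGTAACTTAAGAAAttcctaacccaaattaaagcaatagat
Rpt5: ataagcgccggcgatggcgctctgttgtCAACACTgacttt
Prosalpha2: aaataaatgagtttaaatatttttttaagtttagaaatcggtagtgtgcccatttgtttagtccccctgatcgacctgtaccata

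The Rpn3 stretch stands out as a sequence. The reference holds an exact tandem duplication there, with 2 copies of 78 bp placed head to tail at chr2L:19051607-19051684 and chr2L:19051685-19051762. The first 6 bases of the first copy lie in the first exon of l(2)37Bb, so 72 bases of each copy match within the printed stretch. The summit, at position 19051715 of 2L, lies in the second copy. Within 100 bp of the summit the longest direct repeat was 70 bp, against a median of 8 bp over all 2772 thresholded summits near a protein-coding TSS. It was the only one of that length among them (0.0361%), and the other member summits held direct repeats of 6 to 11 bp. A read that lies wholly inside 1 copy fits both, and how such reads were placed is not given in the sources used here. Its part in the Rpn3 signal was not tested.

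Counted over all 48 members, the share bound was 25.0%, which is close to the 24.1% of all protein-coding genes. The main subunits and the paralogues sat on opposite sides of that background. Of the 32 main subunits 12 were bound (37.5%), and of the 16 paralogues 0, against 3370 of the 13986 protein-coding genes. In the relaxed pooled list, 29 of the 32 main subunits had a summit (90.6%) and 1 of the 16 paralogues (6.25%), against 60.2% of all protein-coding genes. Of the main subunits with a relaxed summit, 41.4% were also bound, against 40.0% of all protein-coding genes with a relaxed summit. The share of main subunits with any summit was thus above that of all genes, and the share of those summits that reached the threshold was close to it.

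Within the particles the shares varied. Over all protein-coding genes 24.1% were bound and 60.2% had a relaxed summit. The alpha ring had 4 of 7 genes bound (57.1%) and the beta ring 1 of 7 (14.3%), although each ring had relaxed summits at 6 of 7. The 4 bound alpha ring genes ranked 3454 to 4234, near the limit of 4537. Among the strongest 4537 of replicate 1 were 4 alpha ring genes and 1 beta ring gene (24.1% of all genes). Among those of replicate 2 were 2 and 1 (24.0% of all genes). The Rpn genes had 6 of 12 bound (50.0%) and a relaxed summit at all 12. The Rpt genes had 1 of 6 bound (16.7%) and relaxed summits at 5 of 6. With 6 to 12 genes in each class, a single gene moves a share by many percentage points, and no test of the differences was made.

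**Figure D1:**
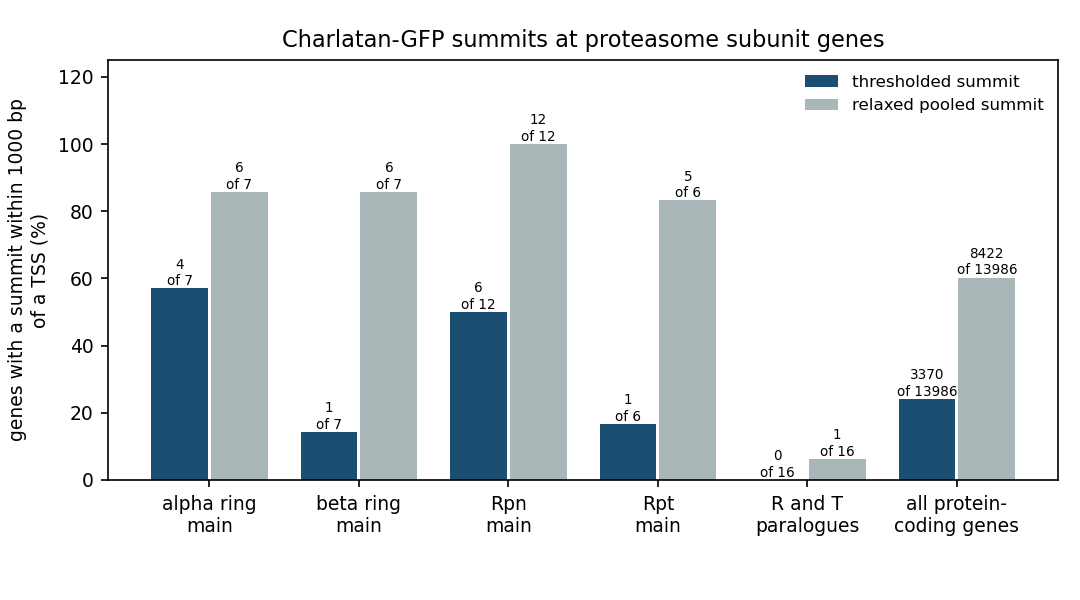
Share of genes in each class with a charlatan-GFP summit within 1000 bp of a TSS (%, vertical axis), in the thresholded set (dark bars) and in the relaxed pooled list (light bars), with the counts above each bar. All 4 classes of main subunits stand at 83.3% or more in the relaxed list, against 6.25% of the paralogues and 60.2% of all protein-coding genes.

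The regulatory particle held the strongest sites. Rpn5 (FBgn0028690, 3R) had a signal of 271 at its distal summit, rank 410 of the 30000 pooled peaks, in a peak at 5789009 to 5789408. Its second summit, 85 bp upstream of the start, had a signal of 186 and rank 944. The replicates put their strongest Rpn5 summits at different places. In replicate 1 the distal summit ranked 453 and the proximal one 1475. In replicate 2 the strongest summit ranked 352 and lay 160 bp upstream of the start, between the pooled summits and within 100 bp of the proximal one only. Hat1, a histone acetyltransferase gene on the opposite strand, starts 109 and 419 bp upstream of Rpn5, and the distal summit was 135 bp upstream of the farther of these starts.

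Rpn6 encodes the lid subunit that ties the lid to the core particle. Its summit (FBgn0028689, 2R, peak 14752179 to 14752578) had a signal of 180 and rank 1029, and lay 108 bp upstream of the nearest Rpn6 start. It ranked 890 in replicate 1 and 1333 in replicate 2. Rpn6 has a farther TSS, so the summit is also inside the annotated span of the gene, and it lay 142 bp upstream of the start of ave. Rpn3 (FBgn0261396, 2L, peak 19051515 to 19051914) had a signal of 178 and rank 1053, 75 bp upstream of its start and 103 bp upstream of that of l(2)37Bb. It ranked 1700 in replicate 1 and 698 in replicate 2. After Rpn5, Rpn6 and Rpn3, no member had a signal above 109.

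Prosbeta1, the beta subunit with caspase-like activity, was the strongest site of the core particle. Its summit (FBgn0010590, 2R, peak 16014649 to 16015048) had a signal of 109 and rank 2405, with rank 3336 in replicate 1 and 1883 in replicate 2. It lay 62 bp upstream of Prosbeta1 and 59 bp upstream of Rrp42, which encodes an exosome subunit. It was about as close to either gene. Rpn2 (FBgn0028692, 3R, peak 29153261 to 29153660) had a signal of 104 and rank 2587, 63 bp upstream of its own start and 195 bp upstream of that of Slbp, the histone mRNA stem-loop binding protein. It ranked 1980 in replicate 1 and 6233 in replicate 2, so it lay outside the strongest 4537 of replicate 2.

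Of the other regulatory particle genes, Rpn10, which encodes a ubiquitin receptor, had a signal of 101 and rank 2712, 31 bp upstream of its nearest start, with rank 2625 in replicate 1 and 3572 in replicate 2. Rpt5 had a signal of 96.2 and rank 2920, 25 bp upstream of its start and 17 bp upstream of that of RanBP3, with rank 2315 in replicate 1 and 3323 in replicate 2. Rpn8, the lid subunit that pairs with the deubiquitinase Rpn11, had a signal of 82.5 and rank 3721, 174 bp upstream of its nearest start, with rank 4759 in replicate 1 and 2782 in replicate 2. Rpn8 has a farther TSS upstream, at 24400028 of 2R, so the summit at 24402831 is also inside the annotated span of the gene. The neighbour Slik, a protein kinase gene, starts 151 bp from the summit. The 4 bound alpha ring genes had lower signals than Prosbeta1. Prosalpha2 had a signal of 86.6 and rank 3454, 6 bp upstream of its start, with rank 3173 in replicate 1 and 4847 in replicate 2. The strongest replicate 2 summit at Prosalpha2 was another one, 254 bp upstream of its start, with rank 4272. Prosalpha5 had a signal of 80.4 and rank 3866, 16 bp downstream of the first of its starts, and ranked 2882 in replicate 1. Replicate 2 had no summit within 100 bp of it, and its strongest one at the gene, 129 bp downstream of the second Prosalpha5 start, ranked 4349. Prosalpha7 had a signal of 78.3 and rank 3998, 12 bp upstream of its start, with rank 3439 in replicate 1 and 5436 in replicate 2. Prosalpha3 was the member just inside the threshold, with a signal of 75.3, rank 4234, and ranks of 4179 in replicate 1 and 5427 in replicate 2. Its strongest replicate 2 summit lay 302 bp upstream of its start and ranked 5230.

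Most bound members ranked in the middle or lower part of the thresholded set. Their median signal was 98.6, against 127 over all 3370 bound protein-coding genes, and their median pooled rank was 2816, against 1888. Only Rpn5 of the 12 (1 gene) fell within the 1000 strongest peaks, while 29.7% of all bound genes did. Within the members, the 7 regulatory particle genes ranked 410 to 3721 (median 2587) and the 5 core particle genes 2405 to 4234 (median 3866). The signal ranges overlapped, at 82.5 to 271 in the regulatory particle and 75.3 to 109 in the core. The deposited −log10 q was at its highest value, 3.89, for 10 of the 13 member summits, so it could not order them.

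**Figure D2:**
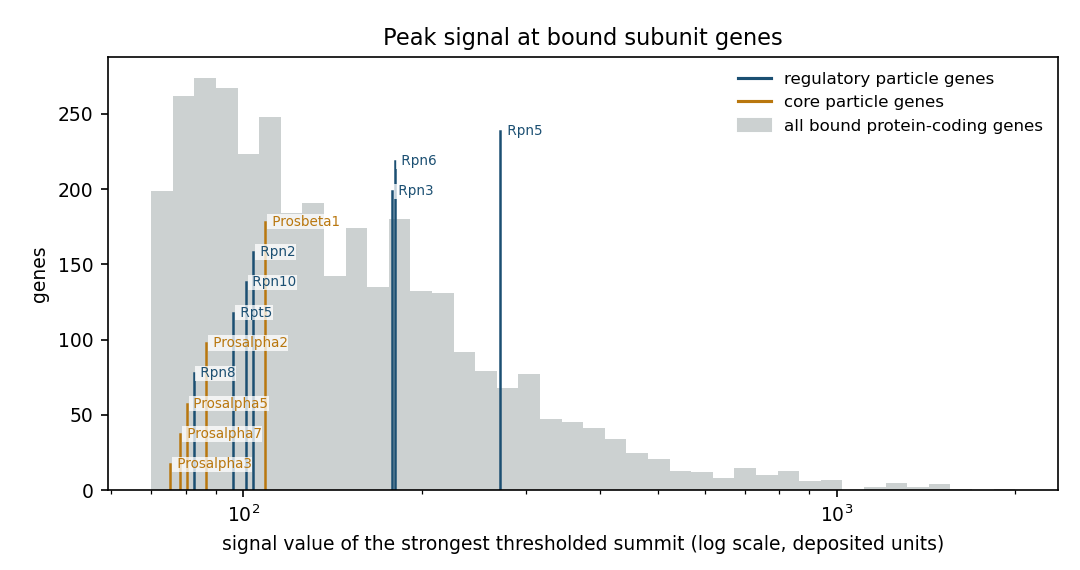
Signal of the strongest thresholded summit at the 12 bound subunit genes (vertical lines, whose heights only separate the names) over the distribution for all 3370 bound protein-coding genes (grey bars, number of genes), on a log axis in the deposited units. Rpn5, Rpn6 and Rpn3 stand apart from the other 9 members, which lie between 75.3 and 109.

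Of the 20 main subunits below the threshold, 17 had a relaxed summit. Prosalpha6 was nearest to the threshold, with a signal of 64.7 and rank 5211 at 210 bp upstream of its start, and ranks of 5031 in replicate 1 and 9744 in replicate 2. The ATPase gene Rpt3 followed with 64.2 and rank 5274, and the lid gene Rpn9 with 61.4 and rank 5610. Rpn1, a scaffold that docks ubiquitin receptors, had 60.1 and rank 5777 in the pool, but ranked 12242 in replicate 1 and 4066 in replicate 2, where it would have passed a limit of 4537. Rpn11, the deubiquitinase of the lid, had 59.3 and rank 5871. The lid gene Rpn7 had 57.0 and rank 6219. The receptor gene Rpn13 had 51.7 and rank 7121. The last of the 6 Rpn genes below the threshold was Rpn12, a lid subunit, with 49.7 and rank 7512.

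The other weak sites were mostly beta ring and Rpt genes. Rpt1 had a signal of 46.9 and rank 8173 at 5 bp upstream of its start, and Prosalpha4 had 39.4 and rank 10498 at 384 bp upstream. Among the beta genes, Prosbeta3 ranked 12116, Prosbeta5, with the chymotrypsin-like site, 12452, Prosbeta4 17431, Prosbeta2, with the trypsin-like site, 21552, and Prosbeta7 28488. Rpt4 ranked 18953 and Rpt2 20998. Of these weak sites, the summits of Rpt4, Rpt2, Prosbeta5, Prosbeta2 and Prosbeta7 had no counterpart within 100 bp in 1 of the replicate lists. No summit of the relaxed pooled list lay within 1000 bp of Prosalpha1, Prosbeta6 or Rpt6. In single replicates, Prosbeta6 had a relaxed summit in replicate 2 at 511 bp, rank 10126, and Rpt6 in replicate 1 at 595 bp, rank 28404. Prosbeta6 had a thresholded summit at 1107 bp, just outside the distance used. The regulatory particle genes with a relaxed summit had a median rank of 5610 (17 genes), and the core genes 7854.5 (12 genes).

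The ranks of member sites differed between the replicate lists. Of the 13 thresholded member summits, 11 had a summit within 100 bp in both replicate lists, and their ranks had a Spearman rho of 0.491. Over all 4317 thresholded summits matched in both lists, rho was 0.731. Both values are descriptions across summits that share the same 2 libraries. Of the 13, 6 stood among the strongest 4537 of both replicates, against 72.4% of all thresholded summits. Neither comparison was matched for pooled rank, whose median was 2816 over bound members and 1888 over all bound protein-coding genes. Replicate 1 ranked 7 of the 11 better and replicate 2 ranked 4 better, and over all thresholded summits replicate 1 ranked 51.9% better. Over the 23 strongest relaxed summits of members matched in both lists, rho was 0.817. Counted by gene, 11 members had a summit among the strongest 4537 of replicate 1, where 24.1% of all protein-coding genes did, and 10 among those of replicate 2, where 24.0% did. The lists shared 8 of them. Over all protein-coding genes they shared 2803, of 3366 in replicate 1 and 3361 in replicate 2. Core genes made up 5 of the 11 and 3 of the 10, and paralogues 0 of either.

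**Figure D3:**
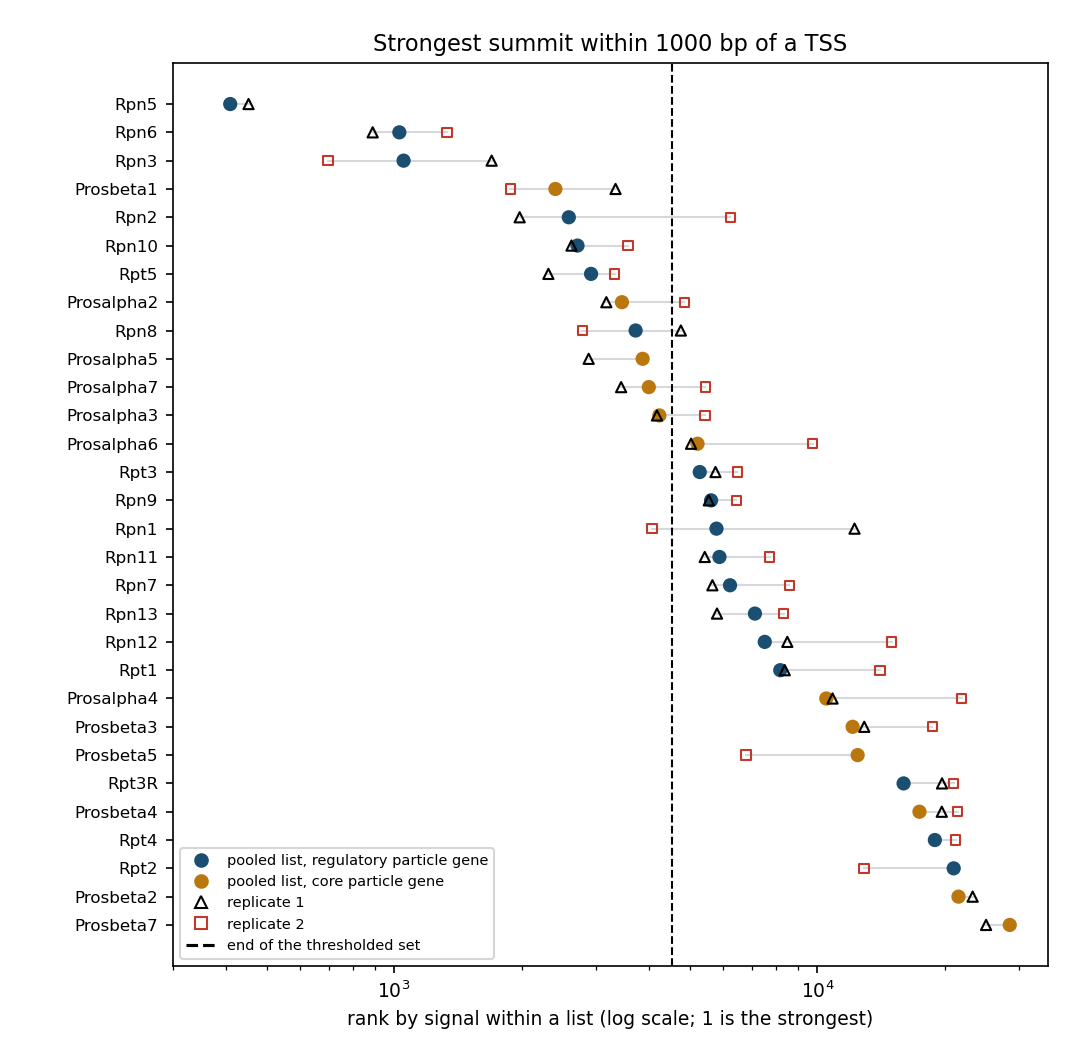
Ranks of the strongest summit at each of the 30 members with a relaxed summit, bound or not, in the pooled list (filled circles). Ranks in replicates 1 and 2 are shown where a summit lay within 100 bp (log axis, strongest at rank 1). The dashed line marks the end of the thresholded set. Among the bound genes, Rpn2 spans 1980 in replicate 1 to 6233 in replicate 2, and Rpn5 and Prosalpha5 have no matched summit in replicate 2.

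The summits sat close to the starts of the subunit genes. In 9 of the 12 bound members the strongest summit lay within 100 bp of a TSS, against 35.7% of all bound protein-coding genes, and the median distance was 57.0 bp, against 156 bp. The summit was upstream of the nearest TSS in 11 of 12, where 83.5% of all bound genes had it upstream. The exception was Prosalpha5. Neighbours were common. In 9 of the 12 another protein-coding TSS lay within 1000 bp of the summit, against 62.6% of all bound genes. In the same 9 the summit was upstream of a pair of divergent starts, against 47.4%. A peak between neighbouring starts cannot be assigned to 1 of the genes. The neighbours were Hat1 for Rpn5, ave for Rpn6, l(2)37Bb for Rpn3, Rrp42 for Prosbeta1, Slbp for Rpn2, RanBP3 for Rpt5, Slik for Rpn8, CG1671 for Prosalpha7 and dgt3, an augmin subunit gene, for Prosalpha3. Rpn10, Prosalpha2 and Prosalpha5 had none. Where each summit was given only to the gene with the nearest TSS, 8 of the 48 members were counted, against 17.3% of all protein-coding genes under the same assignment, since Rpn5, Rpn8, Rpt5 and Prosbeta1 went to their neighbours, and the regulatory particle count was 4.

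**Figure D4:**
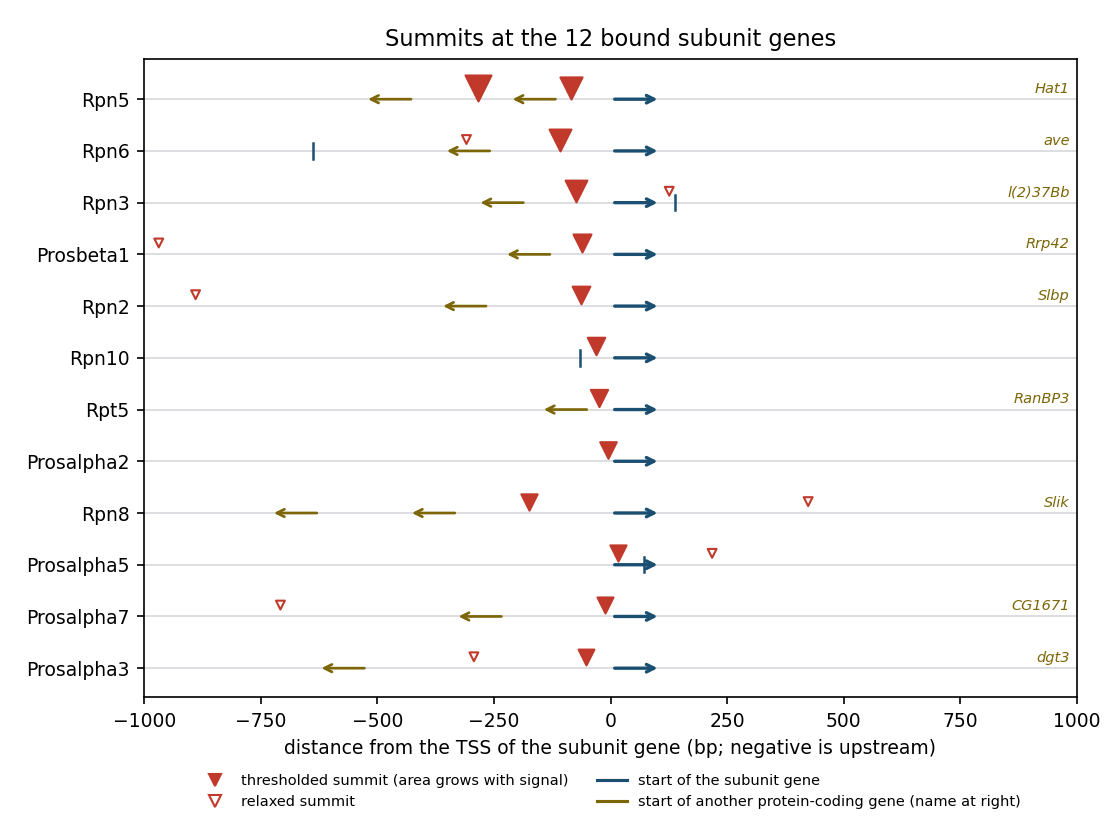
Thresholded summits (filled triangles, area growing with signal) and relaxed summits (open triangles) at the 12 bound subunit genes, by distance from the TSS of the subunit gene (bp, negative is upstream). Blue arrows or ticks mark starts of the subunit gene and brown arrows those of other protein-coding genes, named at the right; 9 of the 12 rows have such a start facing away upstream.

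The paralogues stood apart from the main subunits. None of the 16 was bound, and none was among the strongest 4537 peaks of either replicate. The nearest thresholded summit lay 3994 to 72876 bp from their starts (median 27797.5 bp), against a median of 4772 bp for the unbound main subunits. The nearest relaxed summit was at a median of 5884.5 bp for the paralogues, against 72 bp for the main subunits. Within 100 bp of a start, 1 of 16 paralogues and 18 of 32 main subunits had a relaxed summit, and within 500 bp 1 and 26. For all protein-coding genes the share with a relaxed summit was taken at 1000 bp only (60.2%). Their shares at 100 and 500 bp and their median distances were not computed. The exception was Rpt3R, a paralogue of the ATPase gene Rpt3, with a signal of 30.2 and rank 15987 at 35 bp downstream of its start and ranks of 19706 in replicate 1 and 20977 in replicate 2. That summit lay 16 bp upstream of the start of Alg12 on the other strand. Prosalpha6T had a summit in the relaxed list of replicate 1 only, rank 20590, and Prosbeta2R1 and Rpn12R in that of replicate 2 only, ranks 19740 and 19944.

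Some features of gene structure were also counted in the paralogues and the main genes. A single exon made up 5 of the 16 paralogues, 4 of the 32 main subunits and 1824 of the 13986 protein-coding genes. Of those 1824 genes 37.6% had a relaxed summit and 9.76% were bound. A single TSS was annotated for 14 paralogues and 22 main subunits, and the share over all protein-coding genes was not computed. Of the paralogues 3 lay inside another protein-coding gene (Prosalpha4T1 in CG42322, Rpn12R in Sytbeta and Rpn13R in CG15465 and rg), as did 1 main subunit (Rpt1 in CG17985), against 13.4% of all protein-coding genes. The part of these features in the difference in summits between paralogues and main subunits was not tested.

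The DRE, the site of the factor DREF at promoters of many housekeeping genes, lay within 100 bp of 4 of the 13 member summits (30.8%), those of Prosbeta1, Prosalpha5, Rpt5 and Prosalpha3, against 7.54% of the 2759 other thresholded summits near protein-coding starts. Both strands were searched. The Rpt5 match spans the start of RanBP3, so only its end lies in the stretch printed above and it is not in capitals there. The 7-mer ATCGATA, which lies inside the DRE, was at 7 of 13 (53.8%), against 14.8%. ACTATCG and CTATCGA, which overlap it in part, were each at 5 (38.5%), against 8.77% and 10.7%, and AGTGTTG was at 3 (23.1%), against 10.7%. The other 7-mers searched from the earlier analysis were at 0 or 1 of the 13. CACAGTG was at 0, against 7.65%, and CGCTCTC at 0, against 6.34%. ACAGCTG was at 1 (7.69%), against 9.57%. CGATAGC was at 1 (7.69%), against 6.42%, and CTCGCTC at 1 (7.69%), against 5.40%. The TATA box TATAAA was at 5 (38.5%), against 29.1%, and the E-box CAGCTG at 1 (7.69%), against 14.1%. The GAGA motif GAGAGAG and the 7-mer ACAGTGG were at 0 of 13, against 7.07% and 8.19%. The mean GC content of the windows was 36.6% at members and 39.4% at the others.

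The DRE occurred at the starts of both bound and unbound subunit genes. Within 100 bp of the outermost start it was found at 4 of the 12 bound main subunits (33.3%: Prosalpha3, Prosalpha5, Rpn3 and Rpt5), at 5 of the 20 unbound ones (25.0%: Prosalpha6, Prosbeta2, Prosbeta6, Rpn7 and Rpn9) and at 0 of the 16 paralogues, against 7.83% of the 13968 protein-coding starts searched. The antioxidant response element TGACNNNGC, the site of cnc and maf-S, lay at 1 of the 13 member summits (7.69%, Prosalpha2), against 5.58% of the others. By starts it lay at 1 bound main subunit (Prosalpha2), 3 unbound ones (Rpn1, Rpn7 and Rpt6) and 1 paralogue (Prosbeta4R2), against 6.44% of all starts. A match describes the letters of a window and does not show that a factor binds there.

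Genes that build, regulate or supply the proteasome were also among the bound genes. The list of them was short and written with earlier results known. Of 19 listed genes 18 matched by symbol, 9 of these were bound (50.0%), and 16 had a relaxed summit, against the 24.1% and 60.2% of all protein-coding genes given above. No test of the difference was made. Keap1, which encodes the adaptor that targets cnc for degradation, had the strongest site, with a signal of 286 and rank 367, at 807 bp upstream of its start and near kuk. cnc, the factor known to raise proteasome gene transcription under stress, had a signal of 169 and rank 1158, at 355 bp downstream of a start. maf-S, its partner, had a relaxed summit of rank 5574. ntc, an F-box gene needed in sperm maturation, had a signal of 212 and rank 705, near CG32264 and IntS10. Pomp, the chaperone of core assembly, had 154 and rank 1372, with no neighbouring start. Uch-L5, the deubiquitinase held by Rpn13, had 142 and rank 1592, near Jarid2.

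The ubiquitin supply genes had weaker sites. The polyubiquitin gene Ubi-p63E had a signal of 120 and rank 2044, near Sc2, and Ubi-p5E had 72 and rank 4488, close to the limit. Uba1, the ubiquitin-activating enzyme, had 87.5 and rank 3409, and TER94, the segregase that hands substrates to the proteasome, 91.1 and rank 3194. PI31, rngo, maf-S, Ubqn, Npl4, Rad23 and Sem1, the small lid subunit that the symbol rule leaves out, had relaxed summits only. REG and Usp14 had none. The unmatched entry, Ufd1-like, is named Ufd1 in the annotation by an older symbol in the RefSeq gene table. Ufd1 had a signal of 101 and rank 2722, near NaPi-III. Counting it makes 10 bound.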

How the data were processed

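Per the deposited inventory files, each replicate and the pooled replicates were set against 1 control for ChIP-seq peak calling, and IDR was then run on the resulting lists. Control data were not analysed here. Aligner and peak caller: not given in the sources used here. Deposited lists give per peak a position, a summit, a signal and the −log10 of a q-value. The signal is the authors' own, with no normalization stated, and served only for ranks inside a list. The depth is unknown.

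Positions are on dm6. The dm3 lists were not used, and no position was converted. Peak ends were checked against Release 6 chromosome lengths. Summits were set against all TSSs of protein-coding genes in Ensembl release 115, within 1000 bp, and a replicate summit matched a pooled one within 100 bp. Motifs were searched in 201-bp windows on both strands. The symbol rule gave the members, and a hand-written list the other pathway genes. The members and lists were chosen with earlier results of these data known. Every bound member and every unbound main subunit was named, and the paralogues by group.

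With 1 group no test was made, and counts stand beside the same share over all protein-coding genes. Alternatives covered distances of 250, 500 and 2000 bp, other peak sets, each replicate alone and other assignments. The assignment was tested on simulated data. The software was matplotlib 3.10.9, pandas 2.3.3, scipy 1.17.1 and numpy 2.4.6 under Python 3.11.15.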

Additional observations from a re-analysis of the deposited data

How the results depend on the processing

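Of 65 values recomputed under an alternative, 53 stayed near the value reported and 12 moved further. Near means within 1.5 times a count or, for the median rank, within the 302 ranks of SD between the replicates. That SD comes from the same 2 single-replicate medians it was applied to. The paralogue count of 0 could not change at 250 or 500 bp, with the 1000 strongest peaks, the outermost TSS or the nearest gene. The number of bound members was 12 at 250 bp, 12 at 500 bp, 15 at 2000 bp (adding Prosbeta6, Prosalpha4 and Rpn12), 11 with the outermost TSS only (without Rpn8) and 13 by the peak interval (adding Prosbeta6). The share of all protein-coding genes bound in these settings was 17.4%, 21.2%, 28.9%, 22.3% and 25.0%, in the same order. With all relaxed pooled peaks (60.2% of all genes) it was 30 members, 12 core genes, 17 regulatory genes, 1 paralogue and 16 of the other pathway genes. With the 1000 strongest peaks, where 7.15% of all protein-coding genes were bound, it was 1 member, 0 core genes, 1 regulatory gene and 2 of the other pathway genes, and 1 member shared its promoter. With the nearest gene only (17.3% of all genes), the regulatory count was 4. Leaving out each replicate in turn gave 10 to 11 members, 3 to 5 core genes, 6 to 7 regulatory genes, 0 paralogues, 9 to 10 other pathway genes, 6 to 8 members with a shared promoter and a median rank of 2625 to 3052.5. The share of all protein-coding genes was 24.0% without replicate 1 and 24.1% without replicate 2. Without replicate 1, the core count was 3, Rpn1 was added, and Rpn2, Prosalpha3 and Prosalpha7 were lost, and 9 of the 12 remained. Without replicate 2, 11 of the 12 remained and Rpn8 was lost. Counting Ufd1 by its older symbol, an alternative chosen after seeing the data, gave 10 other pathway genes. No paired analysis was possible because there was 1 group. The lists hold no read counts, so what depth limits cannot be given in reads.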

Other observations

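ATCGATA, on either strand, was within 100 bp of the outermost start of 5 of the 12 bound main subunits (41.7%), 10 of the 20 unbound ones (50.0%) and 0 of the 16 paralogues, against 15.1% of the 13968 protein-coding starts searched. AGTGTTG was at 3 bound main subunits (Rpn2, Rpn5 and Rpt5, 25.0%), 1 unbound one (Rpt1, 5%) and 0 paralogues, against 5.43% of all starts. These values were looked at after the earlier analysis had picked both 7-mers from the same peaks, and no test was made.

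Prosalpha1 and its paralogue Prosalpha1R are neighbours on 2R and both lacked a summit. The nearest relaxed summit lay 2265 bp from Prosalpha1 and 5358 bp from Prosalpha1R. Prosbeta4R1 and Prosbeta4R2 are neighbours on 2L and were the members farthest from any relaxed summit, at 32253 and 29905 bp.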
